A study of Homo sapiens with 6 samples.

Results

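Genes of iron uptake, storage and sensing were followed in RNA sequencing libraries from cells labelled THP-1, a human monocytic leukaemia line used to model macrophages. The members were the rows of the deposited table whose gene symbol was TFRC, TFR2, SLC25A37, SLC11A2, STEAP3, FTH1, FTL, SLC40A1, ACO1 or IREB2. All 10 were found among the 28847 genes listed, and all 10 passed the filter on low values that left 15676 genes to test. The libraries formed 2 groups of 3. The control was THP-1 alone, and the other group was the same line treated with recombinant human RBP4, a protein that carries retinol in plasma. The series calls the cells an M0 (unpolarized) macrophage model and names no allele or other agent. It gives no dose, no time and no statement on separate cultures, so p-values rest on the spread between these libraries, which may be technical. In limma the spread of each gene is also drawn towards a trend over all genes tested.

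Cells take up iron as transferrin bound to the transferrin receptor, reduce it in the endosome, move it into the cytosol, and send it to mitochondria, store it in ferritin or export it through ferroportin. Iron regulatory proteins sense the cytosolic pool. When iron is scarce they bind hairpins called iron-responsive elements, which protects the messenger RNA of the transferrin receptor from decay and blocks translation of ferritin and ferroportin. Red cell precursors carry many transferrin receptors because haemoglobin synthesis consumes most of the body's iron, whereas macrophages recycle iron from old red cells and return it through ferroportin.

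The hairpins found in the members are shown first because iron regulatory proteins act through such elements. A hairpin was counted where a loop CAGTGN, its last base not G, was closed by 5 base pairs (G-T pairs allowed) with a C directly before them, on the transcript strand of the longest protein-coding transcript of each gene in GENCODE 29. Of 19684 genes searched, 189 (0.96%) held such a hairpin. Among the members 4 did. TFRC held 4, all in its 3′ UTR, and FTH1, FTL and SLC40A1 held 1 each in the 5′ UTR. Only 1 other gene had 3 or more in its 3′ UTR. The rule cannot find an element with another loop, so these are counts of matches and may miss elements. The sites lie in GRCh38 at chr3:196050978-196051007, chr3:196050574-196050603, chr3:196050509-196050538 and chr3:196050462-196050491 (TFRC, minus strand), chr11:61967573-61967602 (FTH1, minus strand), chr19:48965335-48965364 (FTL, plus strand) and chr2:189580660-189580689 (SLC40A1, minus strand). They are printed 5′ to 3′ as DNA, with the loop in capitals.
TFRC site 1: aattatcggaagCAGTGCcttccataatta
TFRC site 2: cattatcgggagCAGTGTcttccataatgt
TFRC site 3: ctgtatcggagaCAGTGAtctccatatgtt
TFRC site 4: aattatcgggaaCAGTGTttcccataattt
FTH1 site: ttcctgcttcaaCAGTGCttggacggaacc
FTL site: ctcttgcttcaaCAGTGTttggacggaaca
SLC40A1 site: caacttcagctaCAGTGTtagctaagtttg

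In the libraries labelled RBP4, the transferrin receptor gene TFRC fell by 48.9%, while the ferritin genes FTH1 and FTL, which carry the same type of hairpin at the other end of the transcript, had means 5.07% and 2.75% higher, and only FTH1 was past the threshold. Ferroportin (SLC40A1), the mitochondrial iron importer SLC25A37 and both iron regulatory proteins (ACO1 and IREB2) fell by smaller amounts, from 11.2% to 20.7%. TFR2, the second transferrin receptor, was not past the threshold, with a 95% interval of the log2 difference from -0.07 to 0.05. Of the 10 members, 6 were lowered and 2 raised at an adjusted p under 0.05 (limma, Benjamini-Hochberg over all genes tested), with a median log2 fold change of -0.16. Over all genes tested 50.6% passed, 26.1% lowered and 24.5% raised, with a median of -0.002. Raised genes made up 48.4% of all calls with the deposited scaling and 61.7% with libraries scaled to total reads, where 5 members were lowered and 3 raised. Of 3828 genes averaging at least 1000 normalized reads, 56.5% were lowered, with a median of -0.12, and 9 of the members belong to that class, of which 5 were lowered. Normalized reads are the gene's read count divided by 1 size factor per library, and in bulk RNA fewer cells of a type and less RNA per cell cannot be told apart.

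**Figure D1:**
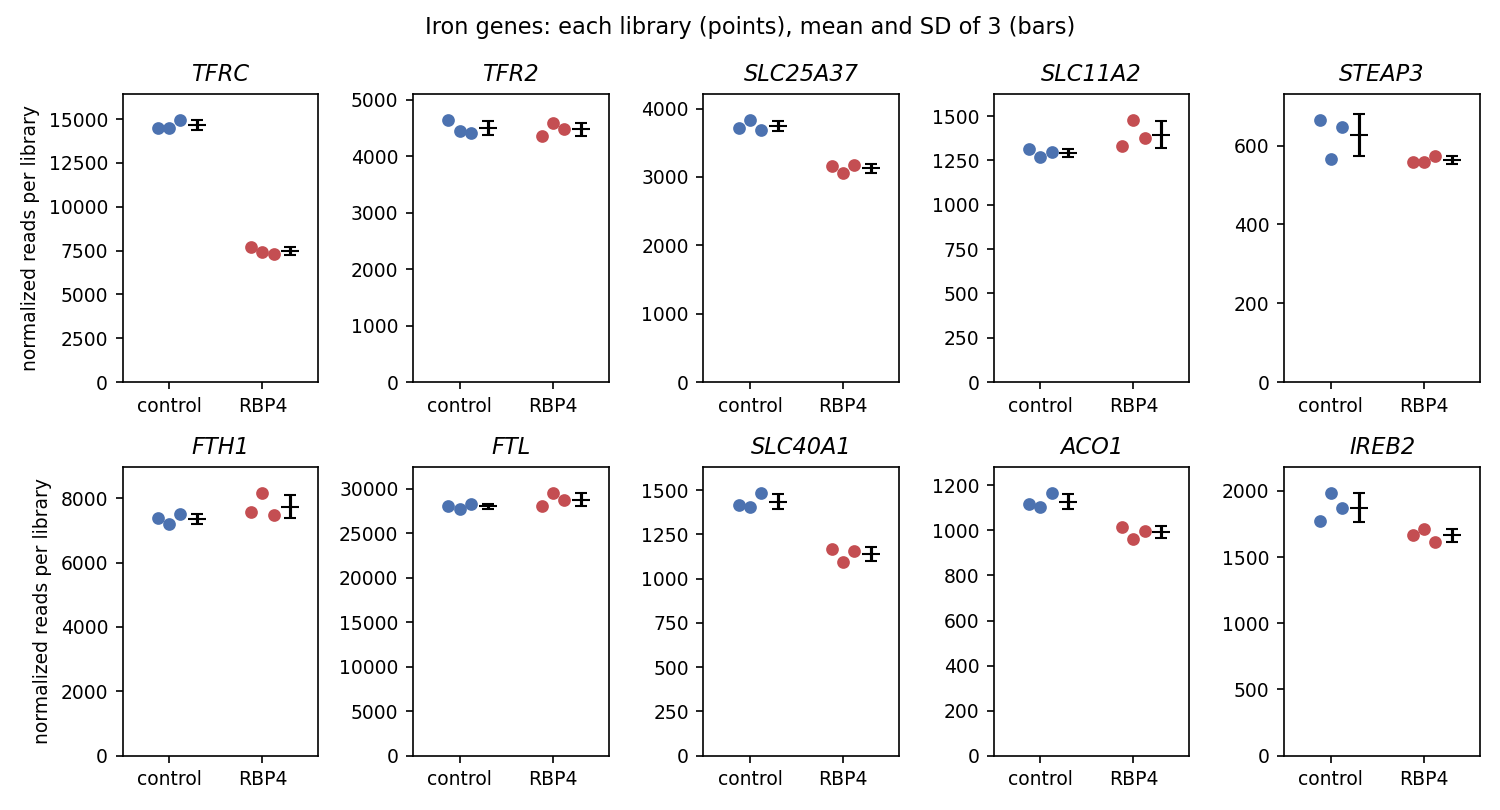
Normalized reads (vertical axes, from 0, each with its own scale) of the 10 members in each of 3 control and 3 RBP4 libraries (points), with the mean and SD of each group (bars). TFRC separates the groups by far more than the spread within them, whereas the points of TFR2, STEAP3, FTH1 and FTL overlap.

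Reads counted in the listed genes, recovered from the deposited values, came to 15202000 to 16420517 per library. That sum is what total reads means here. The cell type label was checked against markers. Of 19 monocyte and macrophage markers analysed, 4 reached 10 CPM (the gene's share of the library's reads, scaled to a fixed depth) in all 6 libraries. They were FCGR2A (mean 105 CPM in the control and 102 in the RBP4 libraries), CD33 (52.7 and 47.0), SPI1 (39.2 and 46.5) and CTSS (14.9 and 14.8). Another 11, among them CD14 and CSF1R, stayed below 1 CPM in every library. Of 23 erythroid markers, TFRC left out, 17 reached 10 CPM in all libraries, with GATA1, the master factor of red cell precursors, at 195 ± 5.51 and 209 ± 1.72 CPM (mean ± SD, n = 3 per group). The erythroid marker HBB, however, stayed below 1 CPM in every library, and SLC4A1 stood at 1.46 and 2.05 CPM. By these counts the data go against the monocytic label, with exceptions in both lists. The groups are named by their labels only. Summed over the 23 genes, erythroid markers ran from 2337 to 2350 CPM in the control and from 2415 to 2457 CPM in the RBP4 libraries, and of the 22 tested 7 were raised, 8 lowered and 7 not past the threshold. The sum of the monocyte list ran from 227.9 to 233.3 and from 236.2 to 248.0 CPM, and of the 8 tested 5 were raised and 2 lowered. CPM follows total reads. With that scaling the median log2 fold change over all genes tested was 0.066, against -0.002 with the deposited scaling. The sums are thus not on the scale of the fold changes and calls, which use the deposited scaling. The part of the marker shifts in the results below was not tested.

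TFRC encodes the receptor that carries iron-loaded transferrin into cells. It had 14468, 14513 and 14964 normalized reads in control libraries 1, 2 and 3, and 7730.1, 7398 and 7326 in RBP4 libraries 1, 2 and 3. Every RBP4 library lay far below every control library. The fall was 1.96-fold (log2 fold change -0.97, SE 0.025, adjusted p = 1.7e-44 in limma). Of the 3828 genes averaging at least 1000 normalized reads, 23 had a lower log2 fold change than TFRC. The gene lies on the minus strand of chromosome 3 (196027183 to 196082189, GRCh38).

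TFR2, a receptor of the same family that binds transferrin with lower affinity and is expressed in liver and red cell precursors, had 4643, 4445 and 4408 normalized reads in the control and 4355, 4589.9 and 4476 in the RBP4 libraries. The groups overlapped (log2 fold change -0.01, SE 0.030, adjusted p = 0.845 in limma). Its sign turned in 4 of 14 alternatives, none of which called it; the largest value was 0.06, with the libraries scaled to total reads (adjusted p = 0.0922). Per kilobase of gene length, TFRC stood at 1857 and TFR2 at 888 normalized reads in the control libraries. In the RBP4 libraries they stood at 949 and 883, so that the receptors, well apart in the control, were close neighbours there, and the lowest TFRC value (929) still lay above the highest of TFR2 (906). Such a comparison between genes depends on the deposited lengths, 7887 bases for TFRC and 5065 for TFR2.

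STEAP3 and SLC11A2 act in the endosome after uptake: the first reduces ferric iron and the second, also called DMT1, carries ferrous iron across the membrane. STEAP3 had 665.5, 565.5 and 646.8 normalized reads in the control and 557.7, 557.1 and 574.2 in the RBP4 libraries. Control library 2 lay inside the range of the RBP4 group, and the call (log2 fold change -0.15, SE 0.063, adjusted p = 0.0422 in limma) was lost in 9 of 14 alternatives. These included edgeR on recovered reads (adjusted p = 0.0666), DESeq2 (0.176), scaling to total reads (0.294), no filter on low values (0.074) and leaving out control library 1 (0.221), control library 3 (0.139), or RBP4 library 1 (0.0985), 2 (0.0925) or 3 (0.0526). Without control library 2 its adjusted p was 0.0058.

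SLC11A2 had 1312, 1269 and 1300.0 normalized reads in the control and 1332, 1479 and 1374 in the RBP4 libraries. The groups did not overlap, but RBP4 library 1 lay close to control library 1. The rise was 1.08-fold (log2 fold change 0.11, SE 0.045, adjusted p = 0.0395 in limma). That call was lost without RBP4 library 2 (0.06, adjusted p = 0.304), without control library 2 (adjusted p = 0.126) or control library 3 (0.0562), with DESeq2 (0.147) and with no filter on low values (0.0708). Some SLC11A2 transcripts are known to carry an iron-responsive element in the 3′ UTR. The hairpin rule above did not find it in the longest transcript, and the table has 1 value per gene and does not separate transcripts.

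SLC25A37, or mitoferrin 1, brings iron into mitochondria for haem and iron-sulfur cluster synthesis and is highest in red cell precursors. It had 3712, 3836 and 3688 normalized reads in the control and 3164, 3052 and 3168 in the RBP4 libraries. The groups did not overlap, and the fall was 1.20-fold (log2 fold change -0.26, SE 0.032, adjusted p = 2.2e-10 in limma). Its paralog SLC25A28, mitoferrin 2, chosen after its values were seen, was not past the threshold. It had 304.3, 337.1 and 314.8 normalized reads in the control and 326.7, 333.3 and 300.5 in the RBP4 libraries, with overlapping groups (log2 fold change 0.01, adjusted p = 0.957 in limma).

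FTH1 encodes the ferritin heavy chain, which oxidizes iron as it enters the shell, and FTL the light chain, which helps to form the mineral core. FTH1 had 7393, 7201 and 7507 normalized reads in the control and 7575, 8158 and 7488 in the RBP4 libraries. RBP4 library 3 lay below the highest control library, and RBP4 library 2 stood above the rest. The log2 fold change was 0.07 (SE 0.028, adjusted p = 0.0308 in limma). It dropped to 0.03 without RBP4 library 2 (adjusted p = 0.409), and the call was also lost without control library 2 (0.168), with DESeq2 (0.0837) and with the replicate number as a block (0.0515). With libraries scaled to total reads, the FTH1 log2 fold change was larger, at 0.14 (adjusted p = 3.47e-05 in limma). FTL had 28043, 27666 and 28246 normalized reads in the control and 28045, 29473 and 28742 in the RBP4 libraries. Its groups overlapped as well (log2 fold change 0.04, 95% interval -0.001 to 0.08, adjusted p = 0.0991 in limma). With libraries scaled to total reads FTL was past the threshold (0.11, adjusted p = 5.81e-06), as it was with no filter (adjusted p = 0.0384) and without RBP4 library 1 (0.0468).

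Ferritin genes have many processed pseudogenes, with which they can exchange reads. The table listed 13 for FTH1 and 3 for FTL, and their summed values came to 0.891% to 1.34% of FTH1 and 0.0455% to 0.0886% of FTL in the same library. FTH1 (chromosome 11, 61959718 to 61967660, minus strand) also overlaps BEST1, a chloride channel gene on the plus strand, and the library kit does not mark the strand. BEST1 had 4.85 ± 1.67 normalized reads in the control and 31.2 ± 3.63 in the RBP4 libraries (mean ± SD, n = 3 per group; log2 fold change 2.49, adjusted p = 8.4e-08 in limma), which is small beside FTH1.

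SLC40A1, or ferroportin, is the only known iron exporter of animal cells. It had 1417, 1403 and 1482 normalized reads in the control and 1166, 1092 and 1154 in the RBP4 libraries. All 3 RBP4 libraries lay below the control group. The fall was 1.26-fold (log2 fold change -0.33, SE 0.045, adjusted p = 2.9e-09 in limma), the next after that of TFRC among the members. The transcript with the 3′ hairpins and 1 of the 3 with a 5′ hairpin thus fell, and the other two did not.

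ACO1 encodes iron regulatory protein 1, a cytosolic aconitase that turns into an RNA-binding protein when it loses its iron-sulfur cluster, and IREB2 encodes iron regulatory protein 2, which is degraded when iron is plentiful. ACO1 had 1117, 1102 and 1165 normalized reads in the control and 1017, 963.1 and 995.8 in the RBP4 libraries. IREB2 had 1769, 1982 and 1869.6 in the control and 1665, 1711 and 1613 in the RBP4 libraries. Neither gene's groups overlapped. ACO1 fell by 0.19 (SE 0.048, adjusted p = 0.00092) and IREB2 by 0.17 (SE 0.041, adjusted p = 0.00035) on the log2 scale in limma. Groups did not overlap for 6 of the 10 members, against 56.2% of all genes tested.

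**Figure D2:**
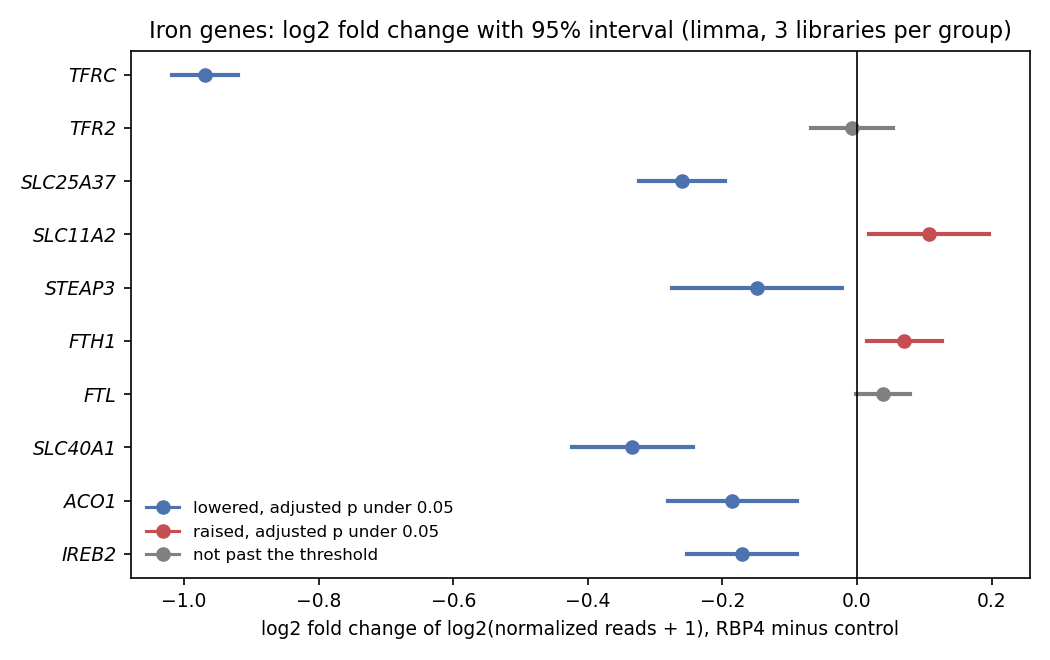
Log2 fold change on the log2(normalized reads + 1) scale, RBP4 minus control, of each member (point) with its 95% interval (line) from limma with 3 libraries per group, coloured by whether the adjusted p was under 0.05. TFRC stands alone near -1, and the other members lie between -0.33 and 0.11.

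Per kilobase, the order of levels in the control libraries was FTL (31873 normalized reads), FTH1 (3629), TFRC, TFR2, SLC25A37 (459.7), SLC40A1 (331), IREB2 (173), ACO1 (149), STEAP3 (137) and SLC11A2 (128). The ranges of ACO1 and STEAP3, and those of STEAP3 and SLC11A2, overlapped between neighbours. In the RBP4 libraries the first 7 places were held by the same genes in the same order, followed by SLC11A2 (137), ACO1 (131) and STEAP3 (123). There, SLC11A2 and ACO1 overlapped.

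Ratios within a library do not depend on its scaling. TFRC to FTH1, the uptake receptor against the storage subunit, had a log2 ratio of normalized reads of 0.97, 1.01 and 1.00 in control libraries 1, 2 and 3, and of 0.03, -0.14 and -0.03 in RBP4 libraries 1, 2 and 3. All 3 RBP4 libraries lay below the control group, with a difference of -1.04. With 3 against 3 libraries the two-sided exact permutation test gave p = 0.1, the smallest it can give (0.3 adjusted over the 3 ratios tested). FTH1 to FTL stood at -1.93 ± 0.015 and -1.89 ± 0.044 (mean ± SD, n = 3 per group; exact permutation p = 0.3, adjusted 0.45). The log2 ratio of IREB2 to ACO1 stood at 0.73 ± 0.101 and 0.75 ± 0.073 (exact permutation p = 0.7, adjusted 0.7). The transcript ratio of TFRC to FTH1 thus differed by about 1 log2 unit between the groups. Most of that is the fall of TFRC itself (log2 fold change -0.97, against 0.07 for FTH1, in limma). For FTH1 to FTL and IREB2 to ACO1 the difference between groups was within the spread of the libraries.

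**Figure D3:**
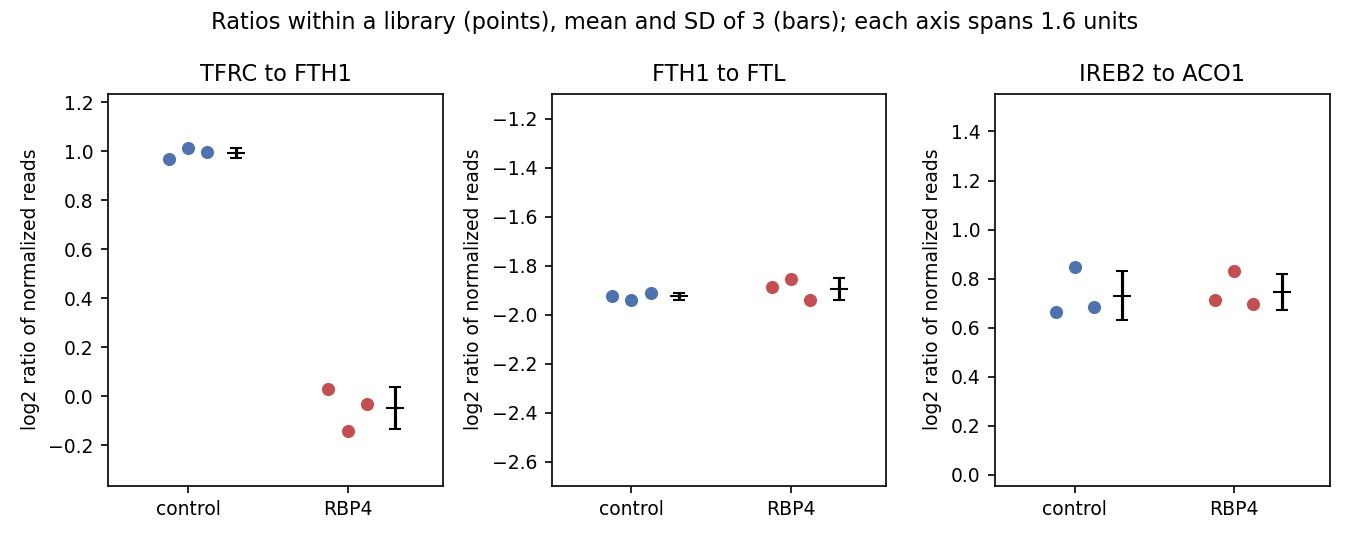
Log2 ratio of normalized reads within each library (points) for TFRC to FTH1, FTH1 to FTL and IREB2 to ACO1, with the mean and SD of 3 libraries (bars), on axes of equal span. The TFRC to FTH1 ratio separates the groups, and the other pairs overlap.

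Genes near the members in the pathway were taken from 6 lists. Over all genes tested 24.5% rose and 26.1% fell, the shares that stand beside the counts of each list. Of 18 other genes of uptake and export that were tested, 7 rose, 3 fell and 8 were not past the threshold (median log2 fold change 0.06, against -0.002 for all genes tested). SLC39A14 (ZIP14), an importer of unbound iron, had 1351, 1361 and 1351 normalized reads in the control and 2206, 2188 and 2148 in the RBP4 libraries (1.61-fold, log2 fold change 0.69, adjusted p = 2e-24 in limma). LRP1, an endocytic receptor that also takes up haem bound to hemopexin, had 458 ± 36.5 normalized reads in the control and 851 ± 17.5 in the RBP4 libraries, a rise of 1.86-fold (mean ± SD, n = 3 per group). SLC48A1, which carries haem out of lysosomes, rose 1.37-fold, from 669 ± 30.8 to 914 ± 11.7. TF, the gene of transferrin itself, rose 2.94-fold from a low level, 47.3 ± 5.77 to 139 ± 1.77.

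In the list of ferritin handling and iron chaperones, 1 of 6 tested genes rose and 5 fell (median -0.15, though the mean was 0.02). The 5 that fell all average at least 1000 normalized reads. Of all genes in that class 56.5% were lowered, with a median of -0.12. PCBP1, a chaperone that delivers iron to ferritin, had 4528 ± 282 and 3532 ± 97.0 normalized reads, a fall of 1.28-fold (n = 3 per group, adjusted p = 1.5e-12 in limma). HERC2, the ubiquitin ligase that controls NCOA4, fell 1.20-fold and the glutaredoxin GLRX3 1.15-fold, while PCBP4, a related RNA-binding protein gene of low level, rose 2.14-fold. NCOA4, the receptor that brings ferritin to lysosomes for iron release, was chosen after its values were seen: it had 3824 ± 170.1 and 3574 ± 62.8 normalized reads (log2 fold change -0.10, adjusted p = 0.00996 in limma). That call was lost without control library 2 (adjusted p = 0.055), control library 3 (0.0851) or RBP4 library 1 (0.0688), and with libraries scaled to total reads (0.486). In each of these 4 settings the list had 4 calls in place of 6.

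Among 19 tested genes that control the iron regulatory proteins or sense systemic iron, 6 rose, 4 fell and 9 were not past the threshold (median -0.07, mean 0.26). ERFE, or erythroferrone, a hormone by which red cell precursors hold down hepcidin, had 56.92, 91.56 and 72.81 normalized reads in the control and 154.7, 200.2 and 198.4 in the RBP4 libraries (2.50-fold, log2 fold change 1.33, adjusted p = 2.3e-11 in limma). NEO1, a receptor that binds hemojuvelin, rose 2.91-fold from 24.5 ± 8.84 to 71.3 ± 3.74. SKP1 and RBX1, shared subunits of the ubiquitin ligase that degrades iron regulatory protein 2, fell 1.20-fold and 1.21-fold. FBXL5, the iron-sensing subunit of that ligase, also chosen after its values were seen, had 592 ± 61.9 and 558 ± 49.1 normalized reads, with overlapping groups (adjusted p = 0.331 in limma). HAMP, the hepcidin gene, did not pass the filter on low values (2.45 ± 2.17 and 2.55 ± 1.99 normalized reads).

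Of 23 tested genes of mitochondrial iron and iron-sulfur cluster assembly, 5 rose, 8 fell and 10 were not past the threshold (median -0.06). SFXN1, a mitochondrial carrier of serine, fell 1.34-fold, from 3345 ± 37.1 to 2499 ± 13.0 normalized reads. LYRM4, a partner of the cysteine desulfurase, fell 1.30-fold and BOLA3, a late assembly factor, 1.28-fold, while the chaperone gene HSPA9 rose 1.15-fold. In the cytosolic assembly list 2 of 9 rose (NDOR1, 1.35-fold, and CIAO3, 1.29-fold), 2 fell (MMS19, 1.14-fold, and CIAO2A, 1.19-fold) and 5 were not past the threshold (median -0.05).

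**Figure D4:**
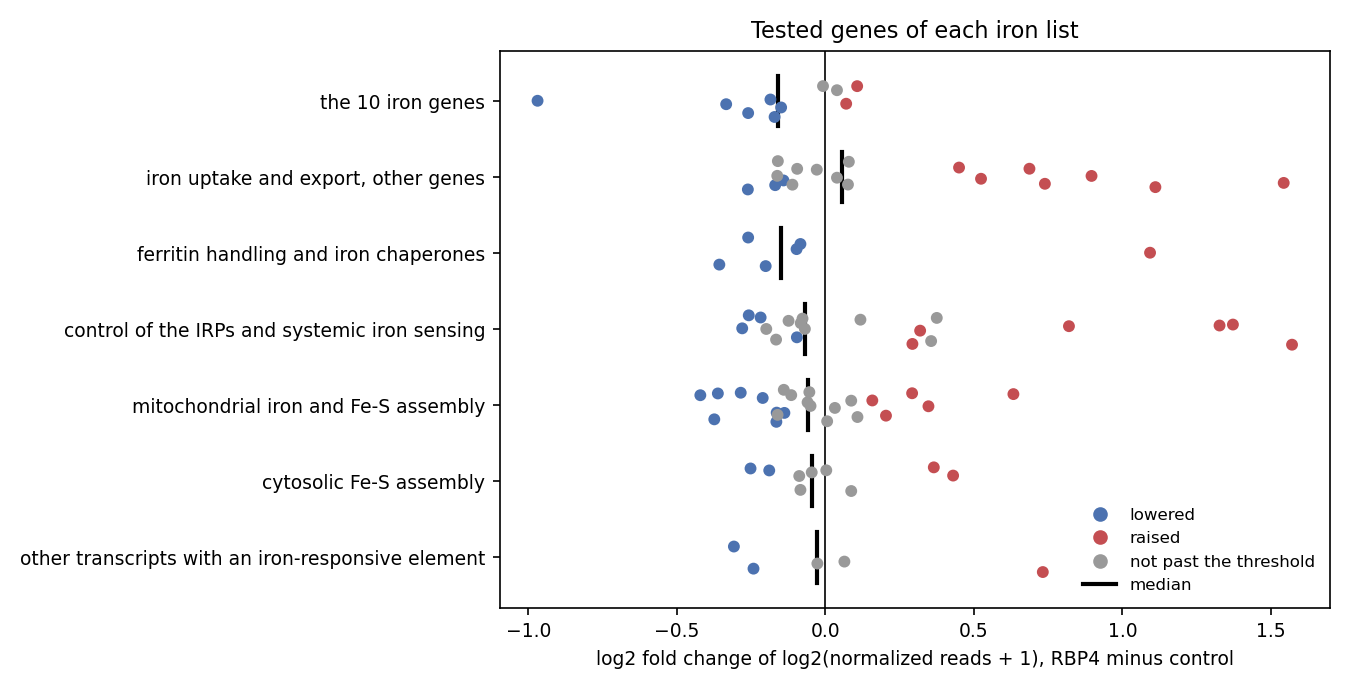
Log2 fold change on the log2(normalized reads + 1) scale, RBP4 minus control, of every tested gene in the members' list and the 6 other iron lists (points, coloured by call), with the median of each list (bar). The medians lie between -0.16 and 0.06, and TFRC is the lowest point in the plot.

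Other transcripts known for an iron-responsive element did not share 1 direction. Of 5 tested, 1 rose and 2 fell (median -0.03, mean 0.04). EPAS1, which encodes the hypoxia factor HIF-2α, had 359 ± 14.6 and 597 ± 29.6 normalized reads, a rise of 1.66-fold (n = 3 per group, adjusted p = 1.3e-14 in limma). CDC14A, a phosphatase, fell 1.18-fold. ALAS2, the first enzyme of haem synthesis in red cells, stood at 649 ± 52.9 and 677 ± 13.7 (adjusted p = 0.392 in limma). Over all tested genes in which the hairpin rule found a match, 5 of 13 with a hairpin in the 5′ UTR rose and 3 fell (median 0.04). Of 62 with one in the coding sequence, 16 rose and 21 fell (median 0.004). Of 78 with one in the 3′ UTR, 24 rose and 24 fell (median -0.01). Over all genes tested, 24.5% rose and 26.1% fell, with a median of -0.002. These counts are descriptions, and they include the members.

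The 5 genes whose pattern over the 6 libraries was most like that of TFRC, by the Euclidean distance between log2(normalized reads + 1) values centred per gene, were ARRDC3 (distance 0.115), CA2 (0.124), SPARC (0.132), FAM178B (0.141) and TPI1 (0.162). Their control levels ran from 1237 normalized reads for ARRDC3 to 12807 for FAM178B, and their folds, control over RBP4, from 1.81 for TPI1 to 2.00 for FAM178B.

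In the authors' deposited table, 5 members had an adjusted p under 0.05: TFRC, SLC25A37, SLC40A1, ACO1 and IREB2. The same 5 were past the threshold in limma and in each of the 14 alternatives run here. For every member, the alternative with DESeq2 on recovered reads gave the same adjusted p as the authors' table. That alternative and the authors' table are thus not separate evidence, and their match is not a check of either. The 3 further calls of limma were not in the authors' deposited table, where the adjusted p was 0.0837 for FTH1, 0.147 for SLC11A2 and 0.176 for STEAP3. Over all genes, DESeq2 on recovered reads also made fewer calls, 5931 of 28847 genes, against 7934 of 15676 in limma.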

How the data were processed

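Groups and replicate numbers came from the sample titles. Messenger RNA, purified on poly-T beads, went into libraries by a NEBNext Ultra kit, per the labels' protocols. Aligner, counter and build: not given in the sources used here. For every gene the deposited table holds a normalized signal for each library and the 2 group means. It also holds the authors' log2 fold change, p-value and adjusted p, per the file headers. In each library 100% of the deposited signal values were whole multiples of 1 step (tolerance 0.01 reads), as read counts over a size factor would be. The step of control library 2 was 1.01, too near 1 for an automatic test to accept it as recovered reads. Recovered reads gave the depth and served edgeR 4.0.16 and DESeq2 1.42.0, both alternatives. The number of unused per-sample columns was 0.

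Genes that reached 10 normalized reads in 3 or more libraries were fitted as log2(value + 1) by limma-trend, robust (R 4.3.3, limma 3.58.1), two-sided, with a Benjamini-Hochberg threshold of 0.05. The added 1 understates the change of low genes. The script was tested on simulated data. Hairpins were mapped through GENCODE 29 exons (GRCh38). Gene lengths are those deposited, and the order of genes per kilobase depends on them. Members, lists and tests were chosen with earlier results of these data known. Named genes were all members, up to 4 of each list with the smallest p past the threshold, the 5 nearest to TFRC, genes that overlap a member, and those said to be chosen after their values were seen. HAMP, ALAS2 and the markers GATA1, HBB, SLC4A1, CD14, CSF1R, FCGR2A, CD33, SPI1 and CTSS, picked from the marker lists, also belong to the last kind. A gene that this rule names is not reported here. Alternatives changed the pseudocount (0.5 or 5), filter, scaling, test and replicate block, and left out each library. Markers of T, NK and B cells (0 of 8 genes at 10 CPM in all libraries) and of epithelial cells and fibroblasts (2 of 6) were also checked.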

Additional observations from a re-analysis of the deposited data

How the results depend on the processing

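TFRC, SLC25A37, SLC40A1, ACO1 and IREB2 kept their direction and their call in each of the 14 alternatives, with TFRC between -0.99 and -0.90 on the log2 scale. The calls of STEAP3, SLC11A2 and FTH1 were lost in 9, 5 and 4 of 14, and FTL gained a call in 3. The number of members called, 8 with limma, was 5 with DESeq2 on recovered reads and 5 to 8 when each library was left out. Over all genes the calls also fell, from 7934 with limma to 5931 with DESeq2 and to between 6917 and 7451 with a library left out. The 2 members raised became 0 with DESeq2, 1 with the replicate block and 0 to 3 with a library left out. In the list that controls the iron regulatory proteins and senses systemic iron, DESeq2 called 6 genes against 10. The cause of these shifts was not tested. The log2 ratio of IREB2 to ACO1, 0.01 between groups, ran from -0.028 to 0.072 with a library left out, being -0.020 without control library 1, -0.010 without control library 3 and -0.028 without RBP4 library 2. With the replicate number as a block, limma called 7829 genes against 7934 and 7 members against 8, losing FTH1 (adjusted p = 0.0515). The paired ratio of TFRC to FTH1 had a difference of -1.04 (exact sign-flip p = 0.25, the smallest 3 pairs can give). Over all genes tested, same-numbered libraries did not deviate together (correlations 0.00365, -0.0079 and -0.0169). A correlation over all genes cannot settle whether they were paired, and the labels do not say. Intervals cover the spread between 3 libraries per group only, with each gene's spread drawn by limma towards the trend over all genes tested.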
